A study of Mus musculus with 2 samples.

Results

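Lum, Dcn, Ogn, Prelp, Ptgds and Tgfbi encode proteoglycans of the corneal stroma and secreted proteins that accumulate in the cornea. They were taken as 6 genes of 14773 named genes with a probe, by matching the name column of the deposited arrays to these symbols without regard to case. Each of the 6 had 1 probe, and 5 of them were above background, among 7896 named genes that were. The study compared spontaneously degenerative with normal corneas, taken from Balb/c mice with the disease in 1 eye only. Both groups are total RNA from untreated tissue as far as the labels say, with no transgene or agent named. The number, age and sex of the mice, and whether RNA was pooled, was not given in the sources used here. Both tissues were hybridised together on 2 two-colour spotted arrays: degenerative cornea carried Cy5 and normal cornea Cy3 on array 1, and the dyes were swapped on array 2. Whether the 2 arrays carry the same RNA extracts was not stated either. As a dye swap they were therefore counted as 1 replicate, with no test between animals and no p-value. Every ratio is the authors' normalized log2 ratio of degenerative over normal cornea, and every ± is the SD of the 2 arrays.

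The transparency of the cornea depends on thin, evenly spaced collagen fibrils. Keratocytes, the resident cells of the stroma, make small leucine-rich proteoglycans that bind these fibrils and set their width and spacing. Lumican (Lum), keratocan (Kera) and osteoglycin (Ogn, also called mimecan) carry keratan sulfate chains in the cornea, and decorin (Dcn) carries a dermatan or chondroitin sulfate chain. Prelp is a leucine-rich repeat protein with a basic amino terminus that binds heparan sulfate and collagen. Ptgds, a secreted protein of the lipocalin family, makes prostaglandin D2 and carries small lipophilic molecules; in the eye it is also made by retinal pigment epithelium and ciliary body. Tgfbi, an adhesive protein with fasciclin domains that is induced by TGF-beta, is secreted by the corneal epithelium and accumulates in the stroma, and mutations in the human gene cause stromal corneal dystrophies.

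The upstream promoter sequences of 3 genes are shown because these are the measured genes of the 6 for which the RefSeq promoter table of build GRCm38.p6 holds a sequence, and because they include the genes with the lowest ratio (Ptgds) and the highest (Tgfbi). Each is the 250 bases before the annotated start, 5′ to 3′ on the strand of the gene. Capitals mark matches on either strand. The AP-1 site was searched as TGANTCA, the GC box as GGGCGG and the Smad box as CAGAC. For the box that binds the TATA factor, the letters searched were TATAAA.
Ptgds, chr2:25469750-25469999, minus strand: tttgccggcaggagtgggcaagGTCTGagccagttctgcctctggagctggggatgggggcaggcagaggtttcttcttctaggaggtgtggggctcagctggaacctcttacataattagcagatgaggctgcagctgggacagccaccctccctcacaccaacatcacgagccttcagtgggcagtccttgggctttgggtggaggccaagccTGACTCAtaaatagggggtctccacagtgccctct
Tgfbi, chr13:56609336-56609585, plus strand: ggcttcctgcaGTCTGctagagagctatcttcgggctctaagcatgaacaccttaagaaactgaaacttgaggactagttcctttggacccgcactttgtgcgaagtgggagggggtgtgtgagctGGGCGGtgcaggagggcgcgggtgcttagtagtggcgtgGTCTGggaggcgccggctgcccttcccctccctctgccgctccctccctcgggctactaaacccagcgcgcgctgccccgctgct
Ogn, chr13:49607765-49608014, plus strand: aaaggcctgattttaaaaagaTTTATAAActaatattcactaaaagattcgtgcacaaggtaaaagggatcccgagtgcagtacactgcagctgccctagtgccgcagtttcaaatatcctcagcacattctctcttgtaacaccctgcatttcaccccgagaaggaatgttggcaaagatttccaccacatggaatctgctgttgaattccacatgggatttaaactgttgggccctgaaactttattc
The Ptgds window held 1 AP-1 match that ended 28 bases before the start, a match held by 6.75% of 32851 promoter windows of the same length. The Tgfbi window held 1 GC box (32.7% of windows) and 2 Smad box matches, and the Ptgds window 1 Smad box match (42.2% of windows). The Ogn window held 2 matches to TATAAA (12.4% of windows), which overlap each other and end 223 and 221 bases before the start. No other matches overlapped, and a match is a description of letters, not of a bound site.

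Background was set from 632 spots that hold no gene, as their median plus 3 scaled median absolute deviations. On array 1 this gave a limit of 290.0 in the degenerative and 569.5 in the normal channel, and on array 2 it gave 788.5 and 373.2. Over all gene probes the median intensity was 246 and 439 in these channels on array 1, and 413 and 226 on array 2; the number of arrays limits the precision. Corneal keratin Krt12 was saturated in all 4 channels, and keratocan, a proteoglycan largely restricted to the corneal stroma, was far above background in all 4. Transcripts of photoreceptors (Sag) and lens (Cryaa, Cryba1) were above background in both RNAs too. In RNA of whole tissue, fewer cells of a type and less RNA per cell cannot be told apart.

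Lumican and decorin were bright in both tissues and osteoglycin was dim, and all 3 had ratios slightly below 0 on both arrays. Lum had intensities of 10381 in degenerative and 12596 in normal cornea on array 1, and 14505 and 15662 on array 2. The degenerative cornea was the lower of the pair on each array, with log2 ratios of -0.23 and -0.15 and a mean of -0.19 ± 0.06, or 1.14-fold lower. Dcn had intensities of 40944 and 44490 on array 1, and 37036 and 44452 on array 2. Its log2 ratios of -0.17 and -0.18 were nearly equal on the arrays, with a mean of -0.17 ± 0.0099, or 1.13-fold lower. Ogn was much dimmer, with 987 in degenerative and 1225 in normal cornea on array 1, and 1146 and 1211 on array 2. Ogn was lower in the degenerative cornea on both arrays, but its log2 ratios of -0.07 and -0.35 lay far apart, with a mean of -0.21 ± 0.19. Its intensities were only 1.45 to 3.40 times the background limits.

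Prelp could not be measured. Its intensities were 227 in degenerative and 478 in normal cornea on array 1, and 186 and 152 on array 2. All 4 were below the limit of their channel, so its deposited log2 ratios, -0.25 and -0.97, are not read as a level or a difference.

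**Figure D1:**
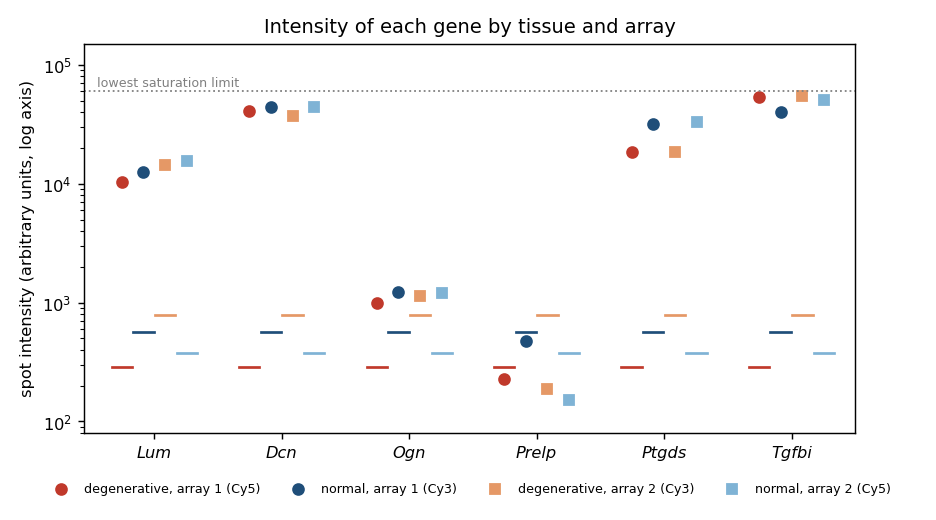
Spot intensity (arbitrary units, log axis) of the 6 genes in degenerative and normal cornea on arrays 1 and 2, each point 1 spot. Short bars are the background limit of each channel and the dotted line is the lowest saturation limit: Prelp lies below its limits in all 4 channels, and Ptgds is the gene whose tissues stand widest apart among the 5 measured.

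Ptgds had the largest difference of the 5 measured genes and was 1.90-fold lower in the degenerative cornea. Its intensities were 18601 in degenerative and 32133 in normal cornea on array 1, and 18406 and 33012 on array 2. The tissues kept their order and nearly the same distance after the dyes were swapped, with log2 ratios of -0.93 and -0.92 and a mean of -0.93 ± 0.0037. The authors' deposited linear ratios were 0.525 and 0.527. Among all 7896 measured genes, 1.24% had a lower ratio on array 1 and 1.25% on array 2. Lum was printed in the same block of spots (block 44), and the log2 ratio of Ptgds minus that of Lum was -0.70 on array 1 and -0.77 on array 2.

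Most measured markers of retina and pigmented tissue had ratios below 0 in the same RNA as Ptgds. Of the retinal pigment epithelium list, 6 of 10 genes were measured, with a median log2 ratio of -0.62; 5 were below 0 on both arrays, 2 of them at least 2-fold lower on each, and 1 was above 0 (Mertk, a receptor for phagocytosis, 0.30 ± 0.02). The list's summed intensity was 13657 and 15885 in degenerative cornea against 25056 and 24264 in normal cornea. Its retinoid-binding gene Rlbp1 had a log2 ratio of -1.97 ± 0.11, the transcription factor Otx2 -1.38 ± 0.11, the opsin Rgr -0.65 ± 0.03 and transthyretin (Ttr) -0.59 ± 0.05, while the defining genes Rpe65, Lrat, Best1 and Rrh were not above background. The melanocyte, iris and ciliary body list had 6 of 11 genes measured, 4 of them below 0 and 1 above 0 on both arrays (the transcription factor Mitf, 0.36 ± 0.31), a median of -0.45 and summed intensities of 35245 and 37383 against 63296 and 60991. Its brightest genes were the melanogenic Dct (-0.85 ± 0.02) and Si, an older name of Pmel (-0.71 ± 0.08), while Tyr and Mlph were not above background. Of the photoreceptor list 20 of 25 genes were measured, 14 were at least 2-fold lower on each array, and the median was -1.41. Of these 14, Opn1sw and Pde6h were below the limit in the degenerative channel of both arrays. Aipl1, Rbp3 and Tulp1 were below it in that channel on array 2. The summed intensities of the photoreceptor list were 115910 and 110667 in degenerative against 252121 and 225613 in normal cornea, and Prph2 and Nrl were not above background. The part of these tissues in the ratio of Ptgds was not tested.

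Tgfbi was the only one of the 5 measured genes that was higher in the degenerative cornea, by 1.27-fold. Its intensities were 53658 in degenerative and 39871 in normal cornea on array 1, and 54298 and 50266 on array 2. The degenerative cornea was the brighter on each array, with log2 ratios of 0.38 and 0.31 and a mean of 0.35 ± 0.05. Among all measured genes 91.9% had a lower ratio on array 1 and 90.3% on array 2. Its brightest spot reached 87.4% of the highest intensity of its channel, under the 98% taken as saturated. The corneal epithelium list had 12 of 17 genes measured, 9 of them above 0 on both arrays, with a median log2 ratio of 0.12 and summed intensities of 606018 and 537130 in degenerative against 556869 and 512185 in normal cornea. At least 1 probe of 6 of these 12 genes was saturated in some channel, and Krt15 and Dsg1a were not above background. Krt12, Krt5, Aldh3a1 and Tkt were saturated in all 4 channels, which limits how far the summed intensities and the ratios of these genes can differ. The part of the epithelium in the ratio of Tgfbi was not tested.

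None of the 5 measured genes differed by 2-fold or more on each array; over all measured genes 0.317% were higher and 0.709% lower by that rule. At 1.5-fold on each array, 1 of 5 was lower (Ptgds) and 0 of 5 higher, where 1.51% of all measured genes were lower and 0.76% higher. That single call was lost with raw ratios centred only on the median of each array, where Ptgds had -0.17 on array 1 and -1.39 on array 2. Before this centring its raw log2 ratios were -0.79 and -0.84. Of the 5, 4 were below 0 on both arrays and 1 was above 0, against 32.9% and 34.6% of all measured genes. With the raw centred ratios 1 of 5 (Ptgds) was below 0 on both arrays, and Lum, Dcn, Ogn and Tgfbi each were above 0 on array 1 and below 0 on array 2. Before centring, the raw ratio of each of the 5 had the same sign on both arrays. The median log2 ratio of the 5 was -0.19, beside 0.0081 over all measured genes.

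Control spots printed once in each of 48 blocks show how far the mean ratio of 1 transcript varies over an array. The 48 spots of M-LDHA had a mean log2 ratio of -0.07 ± 0.05 (SD, n = 48 spots) and ranged from -0.21 to 0.02. Those of M-GAPD had 0.15 ± 0.05 and ranged from -0.06 to 0.26, while the 2 gene probes of Gapdh gave -0.01 ± 0.14 and those of Actb, with saturated spots, 0.13 ± 0.02. Ptgds lay below all 48 spots of either transcript, and Tgfbi above all of them. Lum, Dcn and Ogn each lay inside the range of the M-LDHA spots, with 47 of 48 spots higher and 1 lower, and below all 48 spots of M-GAPD. The ratios of these 3 proteoglycans are therefore no larger in size than the lowest M-LDHA spot, although they lay below nearly all of those spots. That lowest spot, in block 4, differed between the arrays, with -0.37 on array 1 and -0.05 on array 2.

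**Figure D2:**
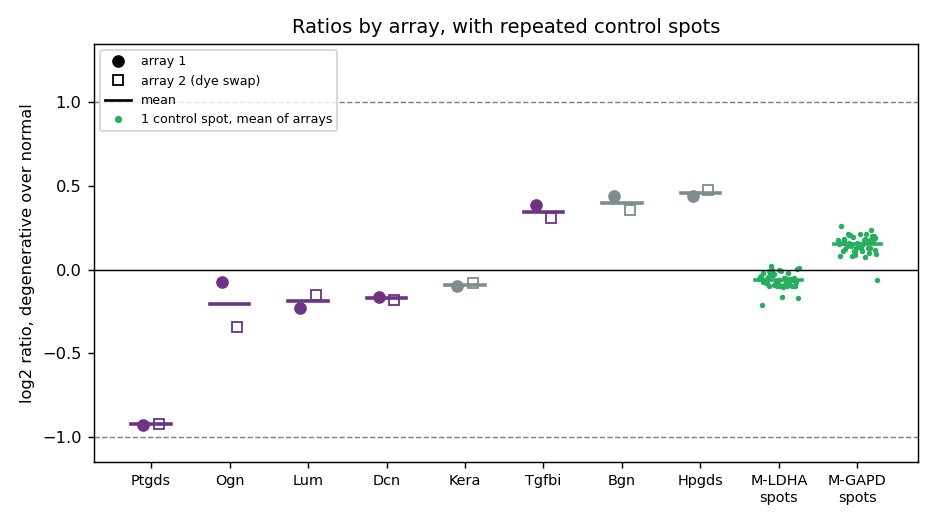
Log2 ratio of degenerative over normal cornea for the 5 measured genes (purple), for Kera, Bgn and Hpgds (grey), and for the 48 spots of each of 2 control transcripts (green, 1 dot per spot, mean of the arrays). Filled circles are array 1, open squares array 2, bars the means and dashed lines 2-fold. Ptgds, at -0.93, lies apart from the other genes shown. The means of Lum, Dcn and Ogn lie above the 1 lowest M-LDHA spot and below the other 47.

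**Figure D3:**
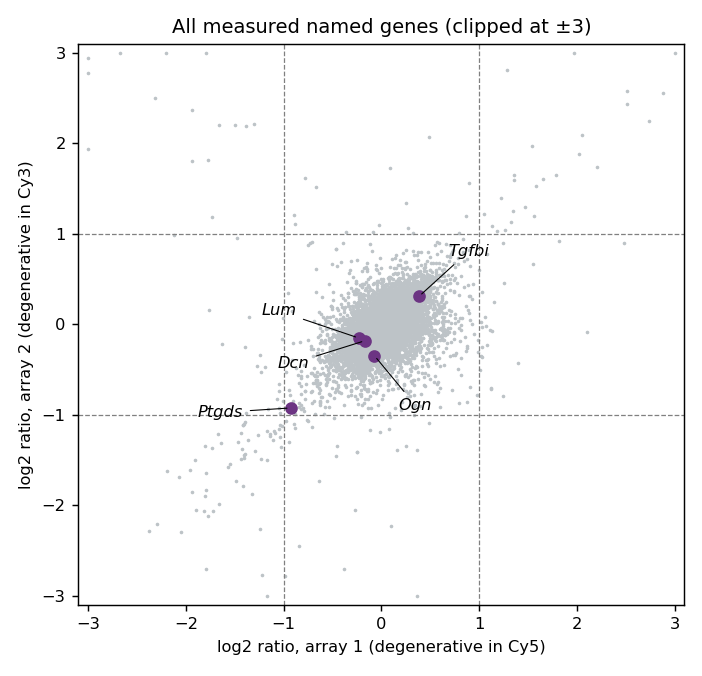
Log2 ratio on array 1 (x axis) and on the dye-swapped array 2 (y axis) of 7896 measured named genes (grey dots, values beyond 3 drawn at 3) with the 5 measured genes in purple; dashed lines mark 2-fold. Ptgds, Lum, Dcn and Tgfbi have close values on both axes, Ogn lies off the diagonal, and no purple point passes 2-fold on both axes.

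Within the small leucine-rich proteoglycan family, the measured genes did not all go the same way. Of 15 listed genes, 13 had a probe and 5 were measured: Lum, Dcn and Ogn, already given, with Kera and Bgn. Keratocan, found under its protein entry name KERA_MOUSE, had intensities of 21618 in degenerative and 23230 in normal cornea on array 1, and 22077 and 23745 on array 2. Its tissues lay close together, with a mean log2 ratio of -0.09 ± 0.01. Biglycan (Bgn), the closest relative of decorin, had 7818 in degenerative and 6113 in normal cornea on array 1, and 7047 and 5086 on array 2. It was higher in the degenerative cornea on both arrays, with a mean log2 ratio of 0.40 ± 0.06. The ratio of Bgn was above that of Dcn by 0.61 on array 1 and 0.53 on array 2. Dcn, Lum and Kera are consecutive protein-coding genes on their chromosome in the RefSeq annotation, and all 3 had small negative ratios. Epyc, which follows them, was not above background, and neither were Optc, a neighbour of Prelp, nor Omd and Aspn, the neighbours of Ogn, nor Chad and Nyx. Fmod, the other neighbour of Prelp, passed the limit in 1 of 4 channels and was not counted as measured.

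Genes that build and sulfate the sugar chains showed small ratios in both directions, and none reached 1.5-fold on each array. Of 19 genes of keratan sulfate synthesis, 7 were measured, 4 above 0 and 1 below 0 on both arrays (median log2 ratio 0.13). The gene below 0 was Chst5, the sulfotransferase that sulfates corneal keratan sulfate in the mouse, at -0.44 ± 0.04. Papss2, which makes the sulfate donor, was at 0.34 ± 0.0059. Of 23 genes of chondroitin and dermatan sulfate synthesis, 6 were measured, with 2 below 0 and 0 above 0 on both arrays (median -0.05). They were the linker enzyme B3galt6 (-0.21 ± 0.05) and Csgalnact2 (-0.33 ± 0.24), which starts chondroitin chains and lay below the limit in the degenerative channel of array 2.

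Other matrix genes of the cornea were more often above 0 than below. Over all measured genes 34.6% were above 0 and 32.9% below 0 on both arrays. Of 23 other proteoglycans and their proteases, 8 were measured, 6 above 0 and 1 below 0 on both arrays (median 0.19); the cell-surface proteoglycan syndecan-1 (Sdc1) had 0.45 ± 0.07 and Sdc3 0.30 ± 0.14. In the list of fibril collagens and their partners 15 of 32 genes were measured, 8 above 0 and 2 below 0 on both arrays (median 0.14). Col3a1 (0.78 ± 0.10) and Col6a1 (0.73 ± 0.09) were its 2 genes that were at least 1.5-fold higher on each array; Col1a1 and Col1a2, the main collagen of the fibrils that Lum and Dcn bind, had no probe under these names. Of 19 other keratocyte genes 14 were measured, 9 above 0 and 1 below 0 on both arrays (median 0.09). Among these 14, Aldh3a1 and Tkt, also on the corneal epithelium list, were saturated in all 4 channels. The matricellular Thbs4 had 0.59 ± 0.07 and the retinaldehyde dehydrogenase Aldh1a3 0.31 ± 0.16.

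**Figure D4:**
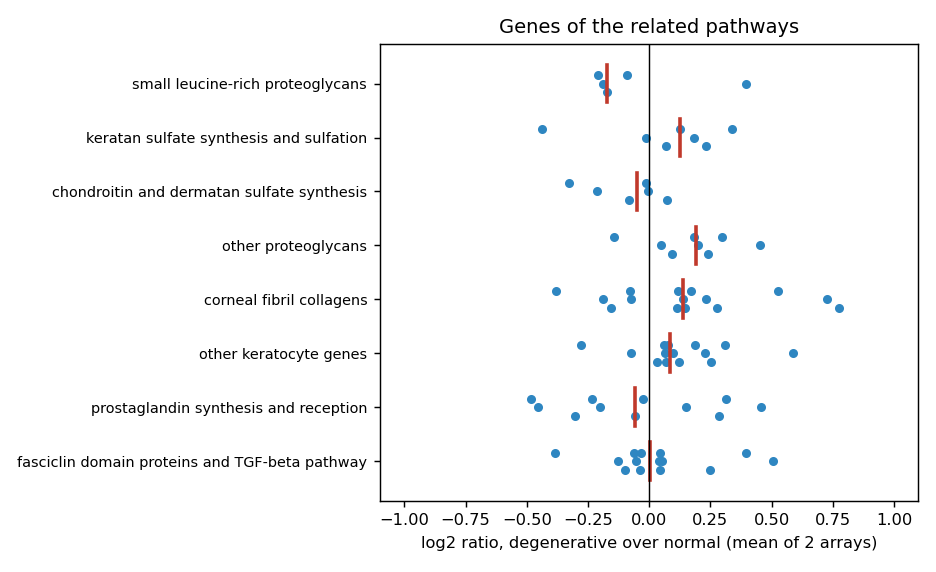
Mean log2 ratio of degenerative over normal cornea (x axis) of each measured gene (blue dots) in 8 gene lists related to the proteoglycans, Ptgds and Tgfbi, with the median of each list as a red line. Medians lie between -0.17 for the small leucine-rich proteoglycans and 0.19 for other proteoglycans, and single genes spread widely around them.

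The 2 prostaglandin D2 synthases went opposite ways. Hpgds, the haematopoietic enzyme, printed under its older name Ptgds2, had intensities of 9592 in degenerative and 7453 in normal cornea on array 1, and 10604 and 7955 on array 2. It was higher in the degenerative cornea on both arrays, at 0.46 ± 0.03, and its log2 ratio was above that of Ptgds by 1.37 on array 1 and 1.40 on array 2. All 20 genes of prostaglandin synthesis and reception had a probe, 11 were measured, and 3 were above 0 and 5 below 0 on both arrays (median -0.06). The prostaglandin-degrading Hpgd had -0.48 ± 0.06, with the degenerative channel of array 2 below the limit, and the prostaglandin D2 receptors Ptgdr and Ptgdr2 were not above background. Of the 10 other lipocalins, relatives of Ptgds by fold, 2 were measured: Lcn2, a siderophore-binding protein, at 0.43 ± 0.15, and the lipid carrier Apod at -0.28 ± 0.21.

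Genes related to Tgfbi by domain or by TGF-beta signalling had mostly small ratios. Of 27 such genes 14 were measured, 3 above 0 and 2 below 0 on both arrays. None of the 14 reached 1.5-fold on each array, and their median was 0.0027. The 2 largest ratios in size were those of Ltbp1, which holds latent TGF-beta in the matrix (0.51 ± 0.05), and the integrin subunit Itgb1 (0.40 ± 0.04). The 2 genes below 0 on both arrays were Ccn2 and Tagln. Tgfb1 had opposite signs on the arrays, and Tgfb2, Tgfb3, Tgfbr1 and Tgfbr2 were not above background.

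Ratios of markers of other tissues are set beside these ratios, and they do not measure how much of each tissue was present. Of the lens list 18 of 21 genes were measured and 12 were at least 2-fold higher on each array, with a median of 1.34. All 12 were crystallins. The crystallins Cryab and Cryga and the other measured lens genes, Mip, Bfsp1, Bfsp2 and Gja3, did not reach 1.5-fold on each array. The corneal endothelium list had 7 of 12 genes measured, 5 below 0 and 2 above 0 on both arrays, and a median of -0.40. Its 1 gene at least 2-fold lower on each array, Car2, was below the limit in the degenerative channel of array 2. The nerve list had 11 of 13 measured, 7 below 0 and 1 above 0 on both arrays, and a median of -0.23. Of these 7, Mbp, Nefm, Gap43 and Uchl1 were below the limit in the degenerative channel of array 2. Uchl1 was the 1 gene of the list at least 2-fold lower on each array. The blood vessel list had 3 of 10 measured, with 2 at least 2-fold lower, neither of them above background in the degenerative channel of either array. The leukocyte list had 8 of 15 measured, 3 above and 3 below 0 on both arrays, and a median of -0.03. The list of scleral and dermal fibroblasts had 3 of 13 measured, with 1 above and 1 below 0 and a median of 0.02.

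The measured genes whose scaled log2 signals lay nearest over the 4 channels of the 2 arrays were found by Euclidean distance, over all measured genes. They were Dnajc8 and Rpl3 for Dcn, Tns2 and Ctps2 for Ogn, Ccr4 and Krt6a for Tgfbi and Uqcrc1 and Zfp97 for Lum, at distances of 0.05 (Tns2) to 0.24 (Zfp97). For Ptgds the nearest genes, Ndufb4 and Mrpl14, lay 0.38 and 0.39 away. Closeness here is of signal in 4 channels, and with 1 comparison it says little about shared patterns.

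The direction of each of the 5 measured genes held in every alternative in which the gene was measured. This is for the mean of the arrays or, where 1 array was left out, for the other. Each gene had 1 probe, so alternatives that changed only the filter, the probes, the names or the print blocks could not change its ratio. The series value table, equal to the deposited ratios, could not either. Only the other normalizations and the single arrays could. Over all alternatives the log2 ratio of Ptgds lay between -0.93 and -0.74 and that of Tgfbi between 0.31 and 0.44. That of Lum lay between -0.23 and -0.14, that of Dcn between -0.18 and -0.10 and that of Ogn between -0.35 and -0.07. Ptgds was farther from 0 with the deposited ratios than with any normalization computed anew from the intensities.

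**Figure D5:**
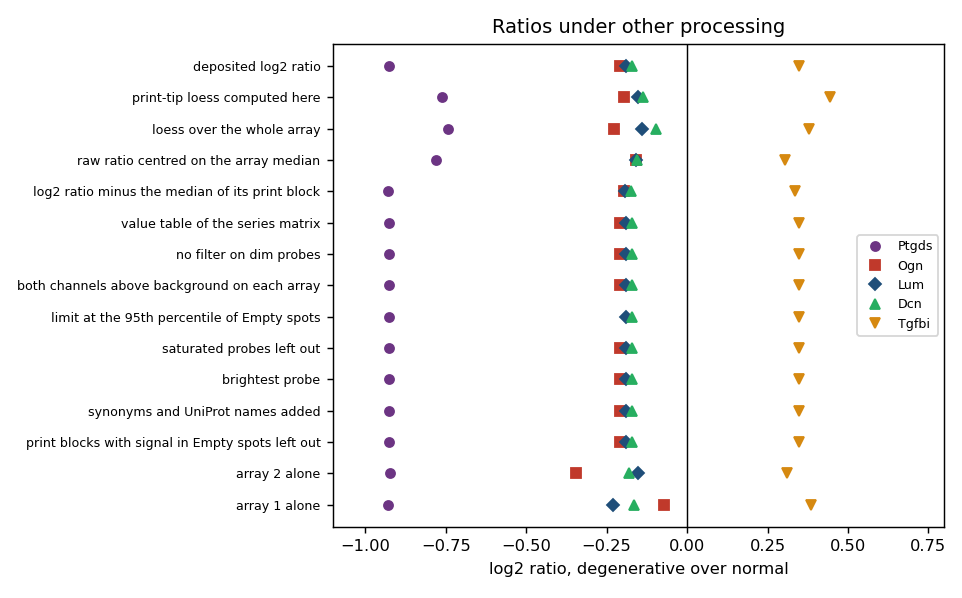
Log2 ratio of degenerative over normal cornea (x axis) of the 5 measured genes under the deposited normalization (top line) and 14 other settings, 1 per line. Ptgds stays between -0.93 and -0.74 and Tgfbi between 0.31 and 0.44, and Ogn has no point where the background limit is the 95th percentile of the empty spots. Settings that change only the filter, the probes, the names or the print blocks cannot move these genes, which have 1 probe each.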

How the data were processed

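Per the file headers, each deposited array table holds Cy5 and Cy3 intensities, the authors' normalized log2 ratio of degenerative over normal cornea, and that ratio on a linear scale. Some intensities are below 0, so the deposited values had a background subtracted; which image software and normalization they used was not given in the sources used here. In every spot the series value table equals the log2 column. Per the labels' protocols, RNA was extracted with Trizol, amplified and labelled.

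The deposited log2 ratios were used. Control spots (1780) were left out of 37632. A probe was kept with at least 1 channel above background on each array, at the median plus 3 × 1.4826 median absolute deviations of Empty spots. A gene's value is the mean over its kept probes. Names were updated through RefSeq symbols of GRCm38.p6, for names only. A spot at 98% of its channel's highest intensity was called saturated. Intensities under 1 were set to 1 for logs. Loess and Aquantile used limma 3.58.1 in R 4.3.3, and tables Python 3.11.15. The calling rule was also run on simulated ratios over 7896 genes, where it recovered 199 of 200 planted changes and called 0 unchanged genes. That run checks the calculation only and does not measure the spread of these arrays or between animals.

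The genes, lists and limits were chosen with earlier results of these data known. Named are the 6 genes, the measured proteoglycan family, the 2 largest ratios or the 1.5-fold calls of each of 9 pathway lists, and marker and nearest genes, up to 30 genes with values beside the 6; this cap left out marker genes, of which Mertk and Mitf were added after their values were seen. The lists hold few genes each, and some are in several lists. The 14 alternatives changed the normalization, the filter, the probes, the names and the arrays used. The names OMD_MOUSE, CHAD_MOUSE and OPT_MOUSE were matched to Omd, Chad and Optc after the name column was read.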

Additional observations from a re-analysis of the deposited data

Results flagged for a closer look

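The Empty spots, outside every comparison since they carry no gene, were not all dark: 65 of 632 exceeded the limit for background on each array. All 65 lay among the 402 Empty spots of print blocks 41, 42, 45 and 46. None of the 6 genes lies in these blocks, and 0 of the 20 Empty spots in the 5 blocks that hold them were above the limit.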

How the results depend on the processing

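No paired analysis was possible because the 2 arrays are a dye swap of a single group and carry no replicate pairs. None of the 5 measured genes was 2-fold on each array under any of the 14 alternatives. For genes with 1 probe, alternatives that changed only the filter, the probes, the names or the print blocks could not alter this. With raw ratios centred on the array median, 0 of 5 genes were at least 1.5-fold on each array and 1 of 5 (Ptgds) was below 0 on both. Ptgds then had -0.17 on array 1 and -1.39 on array 2, and Lum 0.34 and -0.65. Their means were -0.78 and -0.16 in place of -0.93 and -0.19. Before centring, the raw log2 ratios on arrays 1 and 2 were -0.79 and -0.84 for Ptgds and -0.28 and -0.11 for Lum. The arrays thus came apart when each array's median over all gene probes, dim ones included, was subtracted. Why these medians differ was not tested. Genes called 2-fold lower over the whole array numbered 37 with the raw centred ratios and 30 with both channels above background. At the 95th percentile of the Empty spots, a limit at which Ogn was not measured, 34 were lower and 16 higher. Without a filter 179 were higher and 130 lower, and Prelp entered at -0.61 from intensities below background. On 1 array alone 49 to 55 genes were higher and 85 to 91 lower. Signal over background limits Ogn and Prelp, and the number of arrays limits every value.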
